A study of Homo sapiens with 9 samples.

Results

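Tunicamycin was compared with its vehicle, DMSO, in SH-SY5Y cells, a human neuroblastoma line of noradrenergic type that grows in culture and can be driven towards a neuron-like state. The labels give 9 samples in all, 3 each with DMSO, thapsigargin and tunicamycin, and the 6 samples with DMSO or tunicamycin belong to this comparison. Total RNA was read on 1-colour Illumina bead arrays with 22184 probes. The DMSO group received the vehicle alone and the tunicamycin group received tunicamycin. All cells grew in DMEM/F12 medium with fetal bovine serum, penicillin and a further supplement that the labels give without a name. The sources used here give neither the dose nor the exposure time, nor how many cultures were grown. One cell line was used, so nothing here speaks to how other cells respond.

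The 6 labelled columns of non-normalized intensity did not hold 6 separate measurements. DMSO replicate 2 equalled the mean of DMSO replicates 1 and 3 with a largest relative deviation of 1.52e-07, and it was left out. DMSO replicate 3 was itself a mixture, and 1 further DMSO array was recovered from it as 4 times replicate 3 less 3 times replicate 1. The deposited detection p-values, which fall as a probe gets brighter, ran in the order of the recovered array with 0 breaks, against 6785 breaks for the deposited column. Tunicamycin replicates 1 and 2 each followed their own p-values with 0 breaks. The comparison therefore rests on 4 arrays: DMSO replicate 1, the recovered DMSO array, and tunicamycin replicates 1 and 2, so n = 2 in each group throughout.

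Tunicamycin replicate 3 was left out of the main comparison because it held both other tunicamycin arrays. Taking their part out (replicate 3 times 4, less 2 times replicate 1 and 1 times replicate 2) left 1 array that followed the replicate 3 p-values with 0 breaks. That array lay with the DMSO arrays. Along each probe's change from DMSO (0) to tunicamycin (1), its median position was 0.008 over the 564 called probes with a change of 2-fold or more, with quartiles of -0.051 and 0.078, and 2 of the 564 probes lay above 0.5. HSPA5, the most abundant chaperone of the endoplasmic reticulum, read 9.0 on it on the log2 scale, against 9.04 and 8.95 on the DMSO arrays and 12.31 and 12.23 on tunicamycin replicates 1 and 2 normalized together with it. When this array was counted as a tunicamycin sample, as its label says, limma called 0 probes at an adjusted p below 0.05, and 1124 at an unadjusted p below 0.05. Every count below holds for tunicamycin replicates 1 and 2 only and falls to 0 with that array added. Which treatment that array received is not shown by these values alone.

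Tunicamycin blocks DPAGT1, the enzyme of the endoplasmic reticulum (ER) membrane that starts the lipid-linked sugar chain later moved onto asparagines of new proteins. Glycoproteins made without this chain fold poorly and pile up in the ER. Cells then run the unfolded protein response, in which the sensors PERK (EIF2AK3), IRE1 (ERN1) and ATF6 slow translation through eIF2alpha, splice XBP1 mRNA and release an ATF6 fragment. The resulting transcription factors ATF4, XBP1 and ATF6 raise chaperones, folding enzymes, degradation factors and, under lasting stress, CHOP (DDIT3).

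ATF6 with NF-Y binds the ER stress element, and ATF4 with a C/EBP partner binds the C/EBP-ATF response element, both usually close to the start of transcription. The 5 windows below are the 250 bases before the start of genes that the results turn on, read 5′ to 3′ on the gene's strand (RefSeq, GRCh38.p14), with the matched motif in capitals. They are HSPA5 at chr9:125241344-125241593 (minus strand), CRELD2 at chr22:49918384-49918633 (plus), HERPUD1 at chr16:56931892-56932141 (plus), SDF2L1 at chr22:21642052-21642301 (plus) and ASNS at chr7:97872409-97872658 (minus).
HSPA5: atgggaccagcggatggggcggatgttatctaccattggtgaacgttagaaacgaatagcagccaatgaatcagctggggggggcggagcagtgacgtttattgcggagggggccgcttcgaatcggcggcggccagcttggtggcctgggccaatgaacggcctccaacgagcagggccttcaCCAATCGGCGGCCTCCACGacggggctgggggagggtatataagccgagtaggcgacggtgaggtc
CRELD2: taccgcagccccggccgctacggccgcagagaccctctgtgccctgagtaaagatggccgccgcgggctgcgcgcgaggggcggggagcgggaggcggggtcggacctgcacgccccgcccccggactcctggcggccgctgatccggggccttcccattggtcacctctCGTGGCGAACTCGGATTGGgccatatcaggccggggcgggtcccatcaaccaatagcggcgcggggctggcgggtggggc
HERPUD1: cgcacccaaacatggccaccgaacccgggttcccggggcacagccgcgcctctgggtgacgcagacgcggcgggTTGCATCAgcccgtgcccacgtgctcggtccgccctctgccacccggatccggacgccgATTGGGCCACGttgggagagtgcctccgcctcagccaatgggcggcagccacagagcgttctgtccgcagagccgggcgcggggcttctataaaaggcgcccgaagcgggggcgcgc
SDF2L1: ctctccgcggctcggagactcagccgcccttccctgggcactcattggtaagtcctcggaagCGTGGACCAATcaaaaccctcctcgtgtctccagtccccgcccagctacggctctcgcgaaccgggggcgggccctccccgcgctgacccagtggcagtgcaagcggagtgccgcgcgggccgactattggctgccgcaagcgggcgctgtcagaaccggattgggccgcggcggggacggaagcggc
ASNS: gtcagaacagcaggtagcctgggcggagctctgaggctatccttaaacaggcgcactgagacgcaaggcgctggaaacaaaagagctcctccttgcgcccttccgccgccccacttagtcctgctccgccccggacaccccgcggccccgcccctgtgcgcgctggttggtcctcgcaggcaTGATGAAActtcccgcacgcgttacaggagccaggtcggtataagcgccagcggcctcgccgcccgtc
The capitals mark the ER stress element (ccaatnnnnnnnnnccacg) 66 to 48 bases before the start in HSPA5 and, on the opposite strand, 80 to 62 bases before it in CRELD2. They mark the second ER stress element (attggnccacg) 117 to 107 bases before the start in HERPUD1 and, on the opposite strand, 188 to 178 bases before it in SDF2L1. The C/EBP-ATF response element (tgatgnaa) lies 68 to 61 bases before the start in ASNS and, on the opposite strand, 176 to 169 bases before it in HERPUD1.

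The response was broad. After neqc normalization, 12620 probes were detected on both arrays of at least 1 group and were tested with limma. At an adjusted p below 0.05, 6087 of them (48.2%) differed, 2989 (23.7%) higher and 3098 (24.5%) lower with tunicamycin. Centring the arrays on their medians in place of quantile normalization gave 37.7% of the called probes as higher, against 49.1%, and a median change of all probes of -0.059 against -0.003 on the log2 scale. Most changes were small: the median called rise was 0.43 and the median called fall -0.46 on the log2 scale, and 305 probes (2.42%) rose and 259 (2.05%) fell at least 2-fold. The 2 DMSO arrays differed with an SD of 0.14 over probes and the tunicamycin arrays with 0.15, against 0.48 and 0.50 between a tunicamycin and a DMSO array. All 564 probes with a called change of at least 2-fold moved the same way in 2 pairs of arrays with none in common. They were selected on the mean of these same arrays, so this agreement was largely fixed by the selection. Over all tested probes, the changes in the 2 pairs had a Pearson correlation of 0.915.

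**Figure D1:**
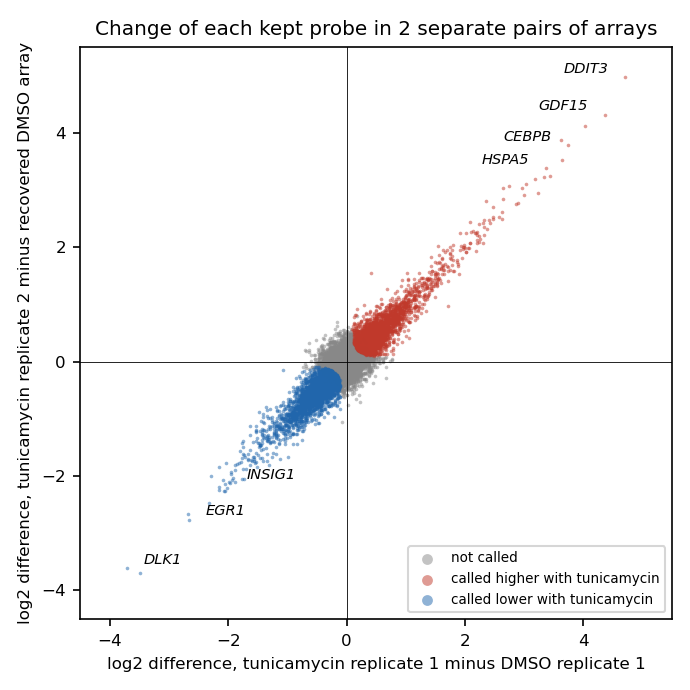
Log2 difference of every tested probe between tunicamycin replicate 1 and DMSO replicate 1 (horizontal) and between tunicamycin replicate 2 and the recovered DMSO array (vertical), as 1 point a probe, red where called higher and blue where called lower with tunicamycin. The points follow the diagonal from DLK1 at the lower left to DDIT3 at the upper right. The genes named in the plot are among the larger changes, and none of them changed sides between the pairs.

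DDIT3, which encodes the stress-induced transcription factor CHOP, rose most. It read 7.34 and 7.14 on the DMSO arrays and 12.04 and 12.11 on the tunicamycin arrays (log2 intensity). The arrays of the groups lay far apart, and the fold change was 28.5 (log2 4.83, SE 0.0884, limma adjusted p = 4.52e-07). GDF15, a secreted stress cytokine, followed with 20.3-fold (5.44 and 5.53 against 9.80 and 9.85). NIBAN1, a stress-induced protein with a part in translation control, was not detected on either DMSO array and was tested only through the tunicamycin arrays. It rose at least 13-fold, the lower bound set by the dimmest detected probes. CEBPB, a dimer partner of CHOP and ATF4, rose 13.6-fold. CRELD2, HSPA5, HERPUD1, ZNF467, PDIA4 and SLC3A2 completed the 10 largest rises by probe. SLC3A2, a subunit of amino acid transporters, ranks there by its dimmer probe (8.52-fold), while its brighter probe rose 4.56-fold, and by the brightest probe of each gene WIPI1 (8-fold) lies above it.

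The chaperones of the ER lumen moved together. Of 27 genes in the list, 26 had a probe and 23 were tested, of which 20 rose, 1 fell and 2 were not called. The median change over those tested was 1.53 on the log2 scale, against -0.01 over all 10425 tested genes, of which 48.6% were called, 23.5% as rises and 25.1% as falls. Of the 23, 16 rose and 0 fell at least 2-fold, against 2.51% and 2.1% of all tested genes.

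HSPA5 (BiP), which holds unfolded chains and keeps the 3 sensors inactive, read 8.95 and 8.85 with DMSO and 12.32 and 12.24 with tunicamycin. That is a rise of 10.4-fold (log2 3.38, SE 0.0768, limma adjusted p = 7.66e-07). CRELD2, a secreted-pathway protein with a disulfide isomerase role, read 9.19 and 9.18 against 12.83 and 12.70, an 11.9-fold rise. SDF2L1, a partner of the BiP cycle, went from 9.55 and 9.54 to 12.45 and 12.32, or 7.17-fold. The arrays within each group differed by far less than the groups did for all 3 genes.

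Regulators of the BiP cycle rose as well. HYOU1, an ER member of the HSP110 family that exchanges nucleotide on BiP, rose 6.02-fold (7.38 and 7.26 against 9.86 and 9.97). The J-domain partners DNAJB9 and DNAJB11 rose 4.62-fold and 4.47-fold. DNAJC3, another such partner, was not detected with DMSO and rose at least 2.36-fold. HSP90B1 (GRP94), the HSP90 of the ER, rose 5.09-fold from 10.64 and 10.63 to 12.97 and 12.99. SIL1, the other exchange factor, rose 1.88-fold. The lectins calnexin (CANX, 2.88-fold) and calreticulin (CALR, 2.62-fold), which bind sugar chains on folding glycoproteins, also rose. The exceptions were FKBP7, a prolyl isomerase that fell 1.65-fold, and SDF2 and CDNF, with log2 changes of -0.03 and -0.07 (limma adjusted p = 0.778 and 0.521). SDF2 and SDF2L1 are close relatives, and their changes were -0.03 (95% interval -0.23 to 0.16) and 2.84. The prolyl isomerase FKBP2 had 3 tested probes that did not move together: the brightest rose 2.08-fold and the dimmest fell 1.68-fold.

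Enzymes that make disulfide bonds split by member. Of 19 tested genes of oxidative folding, 13 rose, 2 fell and 4 were not called, against 23.5% and 25.1% of all tested genes. PDIA4, a disulfide isomerase, read 9.73 and 9.71 with DMSO and 12.92 and 12.91 with tunicamycin, a 9.17-fold rise. Its relatives PDIA6 (2.95-fold), TXNDC5 (2.86-fold), P4HB (2.61-fold) and PDIA5 (2.33-fold) rose less. The oxidases that recharge these enzymes went opposite ways: ERO1B rose 6.16-fold, while ERO1A fell 1.38-fold (7.27 and 7.06 against 6.67 and 6.73, limma adjusted p = 0.00482). ERO1B was detected on 1 of the 2 DMSO arrays.

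**Figure D2:**
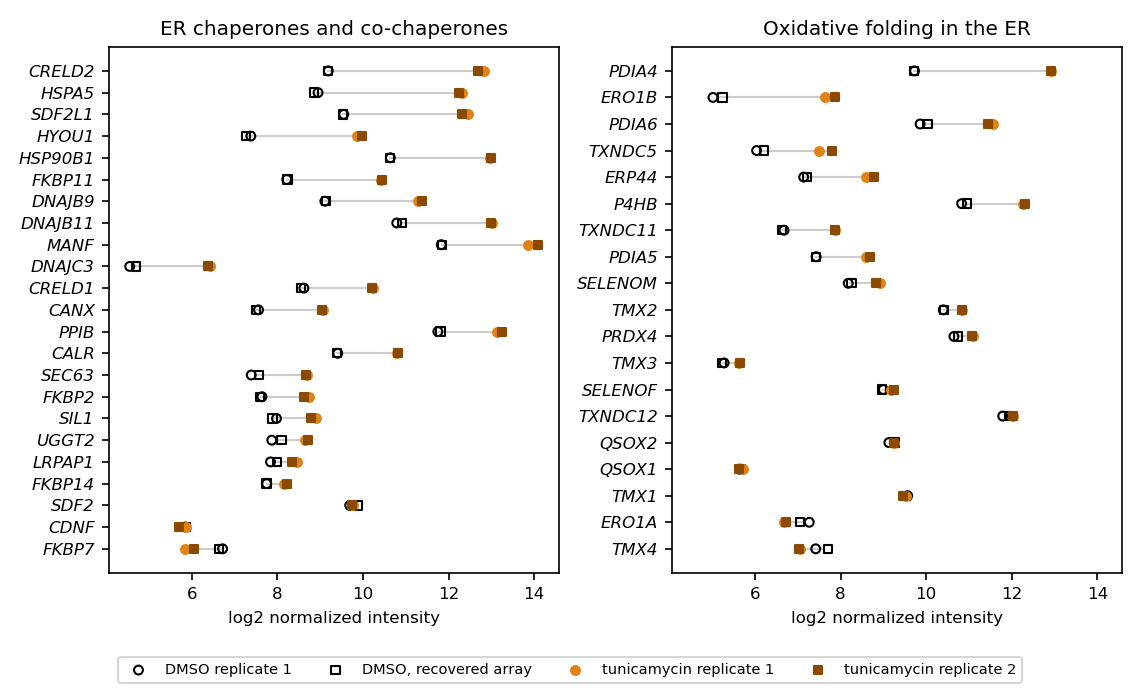
Log2 normalized intensity on each of the 4 arrays for the tested ER chaperones (left) and oxidative folding genes (right), ordered by change, with DMSO arrays as open and tunicamycin arrays as filled symbols and a line between the group means. The filled symbols lie well to the right for CRELD2, HSPA5, SDF2L1 and PDIA4, and to the left for FKBP7, ERO1A and TMX4.

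The promoter windows of these genes were searched for 4 motifs on both strands over the 250 bases before and 50 bases after each start. Only exact matches counted, with n standing for any base, so sites that differ by a letter were missed. The ER stress element is rare: 25 of 27305 genes with a window hold it (0.0916%), and 14 of the 8649 tested genes with a window (0.162%). Of 25 chaperone genes with a window, 5 hold it (20%). Of the 14 tested genes with the element, 13 rose, 0 fell and ZNF17 was not called, against 23.5% and 25.1% of all tested genes. The 13 are ALG12, CALR, CANX, CRELD2, EIF2A, ERO1B, FICD, HSP90B1, HSPA5, PDIA6, SERP1, TMEM120A and XBP1. Of these, FICD, which switches BiP on and off by AMP transfer, rose 7.47-fold, and SERP1, which protects proteins at the translocon, rose 3.27-fold. HSP90B1 holds the element more than once. The motifs were taken in their textbook forms, which may rest in part on some of these same genes. The shares of carriers and of rises therefore describe these genes and do not test the element.

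Of all tested genes, 23.5% rose and 25.1% fell, and the counts for carriers of the other motifs are read against these shares. The second ER stress element occurs in 0.0696% of all genes with a window and in 13 tested ones, of which 7 rose and 5 fell; HERPUD1, HYOU1 and SDF2L1 are among those that rose. The unfolded protein response element (tgacgtgg), the site first described for ATF6 and bound by XBP1, occurs in 0.927% of all genes and in 11 of 43 ER-Golgi traffic genes (25.6%). Of 101 tested genes with it, 50 rose (49.5%) and 20 fell. The C/EBP-ATF response element occurs in 4.46% of all genes, in 7 of 16 amino acid genes (43.8%) and in 7 of 16 tRNA synthetase genes (43.8%), and of its 243 tested carriers 74 rose (30.5%) and 68 fell, shares near those of all tested genes. The first 3 motifs share the letters ccacg or their complement, so 1 stretch can count towards more than 1 of them. The windows of DDIT3 and PDIA4 held no exact match to any of the 4. DDIT3 does hold ccaatgccggcgtgccact, which is 1 letter off the ER stress element, so it cannot be said to lack such a site. A match is a description of the letters and shows no binding.

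Most genes that bring new proteins into the ER rose. Of 26 tested, 20 rose, 2 fell and 4 were not called, against 23.5% and 25.1% of all tested genes. The median change of the 26 was 0.78 on the log2 scale. The channel subunits SEC61A1 and SEC61B rose 2.56-fold and 2.3-fold. For SEC61B the DMSO arrays read 8.60 and 8.57 and the tunicamycin arrays 9.76 and 9.81. SEC11C, a catalytic subunit of the signal peptidase, rose 3.28-fold, TRAM1 2.98-fold and the receptor subunit SRPRB 2.81-fold. SRP9, of the signal recognition particle, fell 1.63-fold.

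Genes of the route that pulls misfolded proteins back to the cytosol for the proteasome rose in part. Of 33 tested genes of ER-associated degradation, 20 rose, 2 fell and 11 were not called, against 23.5% and 25.1% of all tested genes. HERPUD1, which organizes the membrane degradation complex, read 8.70 and 8.87 with DMSO and 12.13 and 12.12 with tunicamycin, a 10.2-fold rise (limma adjusted p = 9.43e-07). Around it, the ubiquitin ligase SYVN1 rose 4.55-fold and its partner SEL1L, not detected with DMSO, at least 2.81-fold. EDEM1, which trims mannose from doomed glycoproteins, rose 4.6-fold and EDEM2 2.2-fold. EDEM3 did not pass the test (log2 -0.16, adjusted p = 0.244). DERL2 rose 2.77-fold, while DERL1 changed by 0.05 (adjusted p = 0.635).

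Genes of the pathway that tunicamycin blocks changed by small amounts. Of 19 tested genes of lipid-linked oligosaccharide synthesis, 10 rose, 3 fell and 6 were not called, against 23.5% and 25.1% of all tested genes. None of the 19 reached a 2-fold change. DPAGT1, the target of tunicamycin, read 6.85 and 7.04 on the DMSO arrays and 7.72 and 7.84 on the tunicamycin arrays. Its mRNA thus rose 1.79-fold (log2 0.84, SE 0.0913, limma adjusted p = 0.00037); the arrays of the groups did not overlap, and enzyme activity was not measured. ALG5, which makes the glucose donor of this pathway, rose 1.93-fold, and the mannosyltransferase ALG12 1.5-fold. DOLK, which makes the dolichol phosphate carrier, fell (log2 -0.37, adjusted p = 0.00527). For ALG13, a partner in the second step, 1 probe fell (-0.36) and the other rose (0.49).

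Most subunits of the complex that moves the finished chain onto proteins rose. Of 16 tested genes of the oligosaccharyltransferase and of glycan trimming, 13 rose, 1 fell and 2 were not called. Over all tested genes, 23.5% rose and 25.1% fell. Among the 16, 6 rose at least 2-fold, against 2.51% of all tested genes. STT3A, the catalytic subunit that works at the translocon, read 9.11 and 9.14 against 10.61 and 10.71, a 2.9-fold rise. The second catalytic subunit STT3B rose 2.04-fold, DDOST 2.62-fold and RPN1 2.37-fold. TUSC3, an oxidoreductase subunit, fell (log2 -0.29, adjusted p = 0.0112), whereas its paralog MAGT1 rose.

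Genes that make or carry sugar donors rose at selected steps. Of 16 tested genes of nucleotide sugar synthesis and transport, 12 rose, 3 fell and 1 was not called. The shares over all tested genes were 23.5% and 25.1%. NANS, which makes sialic acid, rose 5-fold from 7.03 and 7.01 to 9.26 and 9.42. GMPPB and GMPPA, which make GDP-mannose or regulate its making, rose 2.94-fold and 2.65-fold; a second GMPPB probe changed by 0.29 without passing the test (adjusted p = 0.0577). GFPT1, the first enzyme of the hexosamine pathway, rose 2.11-fold, while the later enzyme GNPNAT1 fell (log2 -0.49, adjusted p = 0.00115). SLC35B1, a nucleotide transporter of the ER, rose 2.84-fold.

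**Figure D3:**
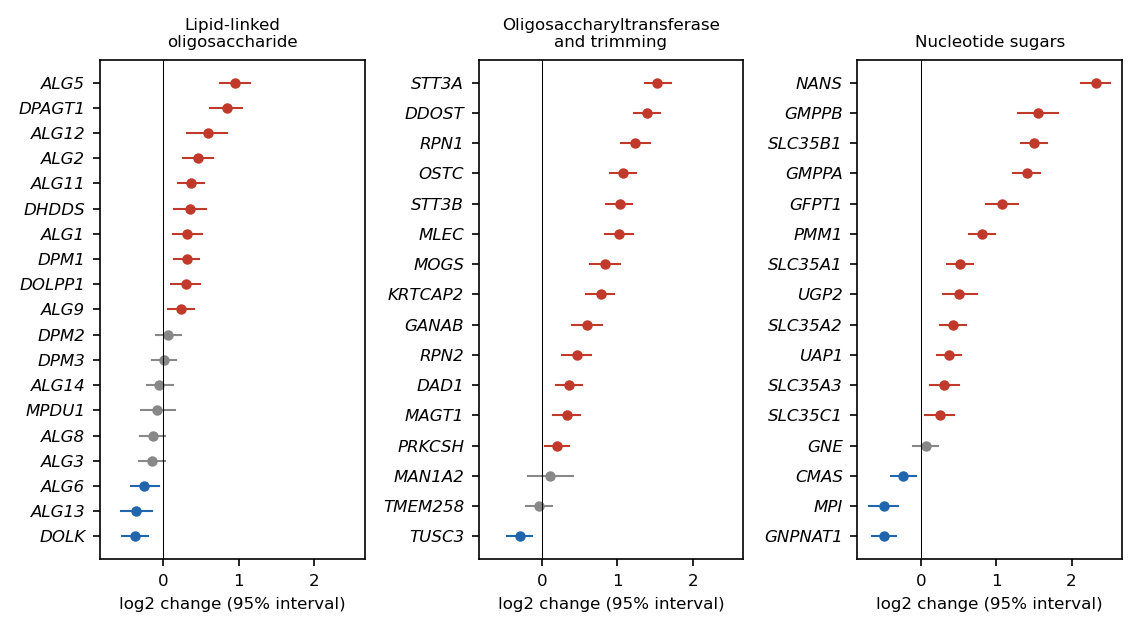
Log2 change with tunicamycin (horizontal, bars the 95% interval of limma) of each tested gene of lipid-linked oligosaccharide synthesis, of the oligosaccharyltransferase and glycan trimming, and of nucleotide sugar synthesis, red where called higher, blue where called lower and grey where not called. DPAGT1 lies second from the top at 0.84, below ALG5 at 0.95, and NANS reaches 2.32.

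Genes of transport between the ER and the Golgi rose almost throughout. Of 46 tested genes, 42 rose, 0 fell and 4 were not called, against 23.5% and 25.1% of all tested genes. The median change of the 46 was 0.81 on the log2 scale. STX5, a SNARE of early Golgi fusion, rose 3.51-fold (9.21 and 9.19 against 10.99 and 11.04). ARFGAP3 rose 3.44-fold, and SEC24D, a cargo adaptor of the COPII coat, was not detected with DMSO and rose at least 2.77-fold. The p24 cargo receptors TMED9 (3.01-fold), TMED2 (2.79-fold) and TMED10 (2.27-fold) rose with them. The coat subunits SEC24B and COPG2, the GTPase SAR1A and a further p24 member, TMED4 (log2 0.17, adjusted p = 0.12), did not pass the test.

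Among the sensors, mRNA of 2 of the 3 rose. EIF2AK3 (PERK) went from 5.58 and 5.46 to 6.86 and 6.76, a 2.44-fold rise, and ATF6 from 8.75 and 9.0 to 10.05 and 10.00, a 2.21-fold rise. ERN1 (IRE1) read 5.68 and 6.0 against 6.05 and 5.75, so its arrays overlapped (log2 0.06, 95% interval -0.25 to 0.38, limma adjusted p = 0.724). Sensor activity depends on the protein and was not measured here. XBP1 rose 5.58-fold (8.93 and 8.86 against 11.40 and 11.35), and the annotation used here does not say whether the probe tells spliced from unspliced mRNA. ATF4, which is controlled mainly through its translation, rose 3.07-fold by its brighter probe, while its dimmer probe changed by 0.07 (adjusted p = 0.527). Of 25 tested sensors and transcription factors, 15 rose, 2 fell and 8 were not called, against 23.5% and 25.1% of all tested genes. The 2 that fell were NFYA and NFYB, subunits of the factor that binds the ccaat part of the ER stress element.

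Few mRNAs known as substrates of the IRE1 nuclease could be tested. Of 4 tested, BLOC1S1 fell 1.69-fold (9.28 and 9.36 against 8.64 and 8.50, limma adjusted p = 0.000344), SCARA3 2.21-fold and PDGFRB 1.9-fold. COL6A1 did not pass the test (log2 -0.19, adjusted p = 0.0528). The background for these counts is the 25.1% of all tested genes that fell.

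Of 21 tested genes of translation recovery, feedback and cell death, 16 rose, 2 fell and 3 were not called. Over all tested genes, 23.5% rose and 25.1% fell. WIPI1, which helps form autophagosomes, rose 8-fold (6.02 and 5.97 against 8.98 and 9.01), and the feedback pseudokinase TRIB3 7.78-fold. PPP1R15A (GADD34), which restores translation by dephosphorylating eIF2alpha, rose 3.09-fold. SESN2 and CHAC1, an enzyme that degrades glutathione, were not detected with DMSO and rose at least 5.3-fold and 3.16-fold. TNFRSF10B (DR5), a death receptor known as a CHOP target, rose 1.99-fold by its brighter probe, with the dimmer one at -0.11 (adjusted p = 0.309). BID, a cell death protein of the BCL2 family, fell 2-fold.

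Most genes of amino acid supply, many of them known ATF4 targets, rose. Of 18 tested genes of amino acid synthesis and transport, 17 rose and 0 fell, led by the glycine transporter SLC6A9 (6.73-fold) and asparagine synthetase (ASNS, 5.87-fold, from 10.58 and 10.64 to 13.16 and 13.17). Of 19 cytosolic tRNA synthetases tested, 13 rose, 1 fell and 5 were not called, led by WARS1 (5.92-fold) and AARS1 (4.49-fold). For both lists, the shares over all tested genes were 23.5% higher and 25.1% lower.

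Genes of cholesterol synthesis and uptake fell as a group. Of 22 tested, 16 fell, 1 rose and 5 were not called, against 25.1% and 23.5% of all tested genes. The median was -0.50 on the log2 scale against -0.01 over all tested genes. INSIG1, which retains the SREBP complex in the ER and is itself an SREBP target, read 10.07 and 10.20 with DMSO and 8.10 and 8.07 with tunicamycin, a 4.14-fold fall (limma adjusted p = 4.44e-06). HMGCS1, an early enzyme of the mevalonate pathway, fell 2.76-fold, and the late enzymes DHCR7 and MSMO1 fell 2.54-fold and 2.48-fold. The transcription factors SREBF1 and SREBF2 fell 1.97-fold and 1.75-fold. The lone rise was TM7SF2, a sterol reductase, at 1.3-fold.

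Most heat shock proteins of the cytosol fell. Of 14 tested, 10 fell, 1 rose and 3 were not called, against 25.1% and 23.5% of all tested genes. HSPA8, the constitutive HSP70, read 12.63 and 12.57 with DMSO and 10.81 and 10.80 with tunicamycin, a 3.47-fold fall. The inducible HSPA1B fell 3.53-fold, and its near-identical copy HSPA1A, whose signal the probes may share, fell at least 2.03-fold to below detection. HSP90AA1 fell 1.9-fold, while its ER relative HSP90B1 rose 5.09-fold. BAG3, a co-chaperone, rose 1.45-fold.

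**Figure D4:**
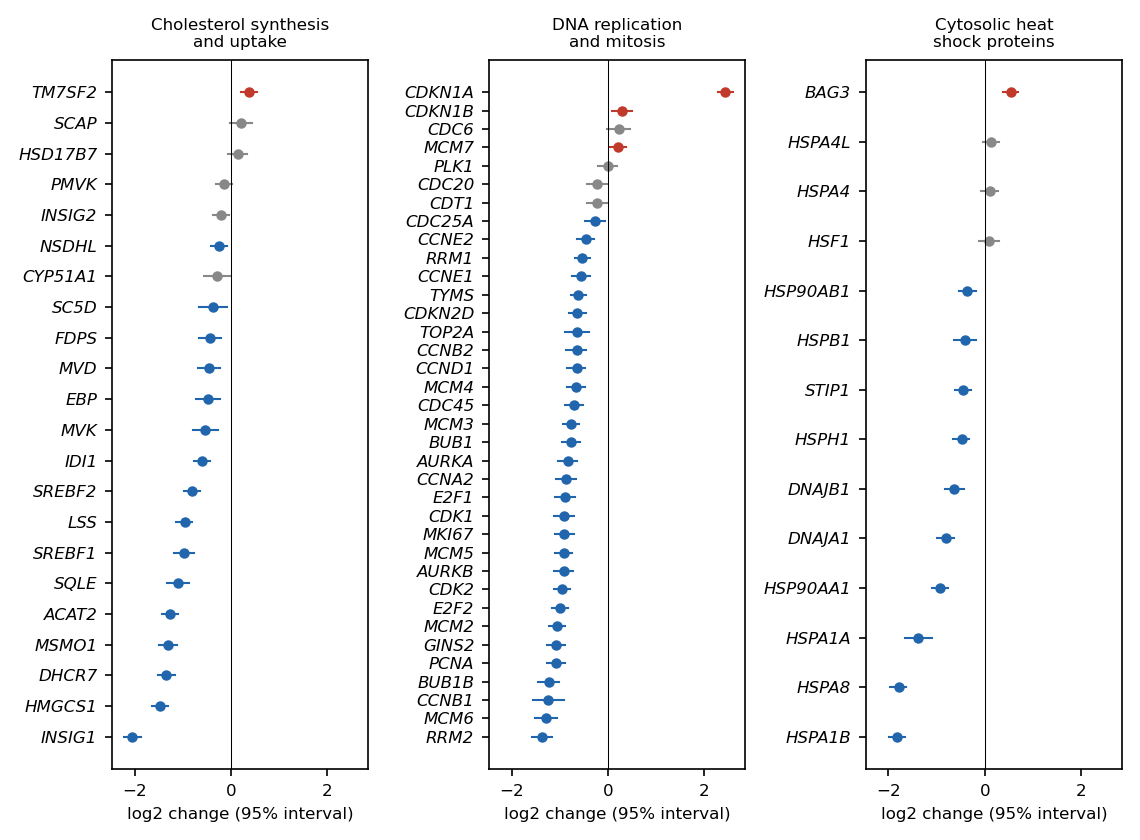
Log2 change with tunicamycin (horizontal, bars the 95% interval of limma) of each tested gene of cholesterol synthesis and uptake, of DNA replication and mitosis, and of the cytosolic heat shock proteins, red where called higher, blue where called lower and grey where not called. Most points lie left of 0, down to -2.05 for INSIG1, and CDKN1A stands alone on the right at 2.44.

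Replication and mitosis genes fell while a cell cycle inhibitor rose. Of 36 tested, 29 fell, 3 rose and 4 were not called (median -0.73), against 25.1% and 23.5% of all tested genes. RRM2, which supplies deoxynucleotides, fell 2.57-fold, and CDKN1A (p21) rose 5.44-fold. The immediate early transcription factor EGR1 read 7.84 and 7.76 with DMSO and 5.17 and 5.00 with tunicamycin, where it was detected on 1 of 2 arrays, a 6.56-fold fall. Of the 10 tested immediate early genes, 4 fell (40%) and 2 rose (20%), the latter JUN and ARC, against 25.1% and 23.5% of all tested genes. With detection required on all 4 arrays, 2 of them fell.

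The title of the series names insulin signalling and mitochondria, so both were followed through their lists. Of 27 tested insulin signalling genes, 11 rose, 4 fell and 12 were not called, against 23.5% and 25.1% of all tested genes. The insulin receptor INSR read 5.52 and 5.28 with DMSO and 5.58 and 5.34 with tunicamycin (log2 0.06, 95% interval -0.21 to 0.33, limma adjusted p = 0.687). Its arrays overlapped between the groups. INSR lay close to the dimmest detected probes (5.12 to 5.17 on the 4 arrays), where a fall could hardly show. Below the receptor, IRS2 fell 1.37-fold (9.74 and 9.75 against 9.22 and 9.35, adjusted p = 0.00264) and IRS1 rose by 0.40 on the log2 scale. The kinase AKT1 and the adaptor GRB2 fell by 0.31 and 0.41 on the log2 scale, and RICTOR, a subunit of mTORC2, rose 1.43-fold. A dimmer GRB2 probe changed by -0.13 without passing the test (limma adjusted p = 0.243). The largest change of the list was in SLC2A1 (GLUT1), a glucose transporter, which fell 3.21-fold from 7.55 and 7.73 to 6.03 and 5.88. FOXO1, a transcription factor that insulin holds back, was not detected with DMSO and rose at least 1.47-fold. The count of rises depended on the processing: 6 rose with median-centred arrays, 5 without DMSO replicate 1, 7 without DMSO replicate 3 and 6 without tunicamycin replicate 1.

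Subunits of the respiratory chain and ATP synthase changed by small amounts, and the called ones fell with 1 exception. Of 65 tested, 25 fell (38.5%), 1 rose (1.54%) and 39 were not called, against 25.1% and 23.5% of all tested genes. The median was -0.17 on the log2 scale, and none changed 2-fold. The largest falls were in the ATP synthase subunits ATP5MF (1.76-fold, from 12.03 and 12.09 to 11.20 and 11.28) and ATP5MC3 (1.72-fold) and in NDUFB3 of complex I (1.74-fold). Median centring gave 48 falls in place of 25. Of 28 tested genes of mitochondrial upkeep, 8 fell (28.6%), close to the 25.1% of all tested genes. A further 4 rose (14.3%), against 23.5% of all tested genes. UCP2, an inner membrane carrier, fell 2.38-fold and BNIP3, a receptor of mitophagy, 2.16-fold. The mitochondrial chaperone HSPA9 rose 1.87-fold and the protease LONP1 1.58-fold, while the matrix chaperonin subunit HSPE1 fell 1.65-fold. PPARGC1A was not tested, and TFAM changed by -0.12 (adjusted p = 0.196). Without tunicamycin replicate 2, 5 upkeep genes fell.

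Genes of the oxidative stress response were called about as often as all tested genes. Of 13 tested, 3 rose (23.1%), 4 fell (30.8%) and 6 were not called, against 23.5% and 25.1% of all tested genes, with NQO1 1.79-fold higher and PRDX1 1.49-fold lower. Of 17 tested autophagy genes, 9 rose (52.9%), 0 fell and 8 were not called, with a median of 0.25 on the log2 scale, led by GABARAPL1 (1.91-fold), SQSTM1 (1.77-fold) and ATG13 (1.7-fold). Without DMSO replicate 3 or without tunicamycin replicate 1, 5 autophagy genes rose.

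Markers of noradrenergic neuroblastoma cells were detected, and so were markers of the mesenchymal type. Of 29 noradrenergic neuroblastoma markers, 26 had a probe and 24 were tested, with DBH, the enzyme that makes noradrenaline, at 13.06 and 13.08 with DMSO. PHOX2A, a regulator of this lineage, read 10.94 and 10.93. With tunicamycin 18 of the 24 fell, 1 rose and 5 were not called, against 25.1% and 23.5% of all tested genes. DDC, which makes dopamine, fell 3.22-fold (11.73 and 11.67 against 10.01 and 10.01), the oncogene MYCN 2.95-fold, GAP43 of growing neurites 2.58-fold and the granule protein CHGA 2.55-fold. DBH fell 1.46-fold and PHOX2A 1.21-fold. TH, the first enzyme of catecholamine synthesis, was near the detection limit and changed by -0.04 (adjusted p = 0.827). Of 13 mesenchymal markers, 9 were tested, of which 6 fell, 1 rose and 2 were not called. With DMSO, DCN read 9.82 and 9.82 and LUM 6.67 and 6.78. Of 21 markers of other cell types, 19 had a probe and 4 were tested, with EPCAM (1.39-fold) and GFAP (1.21-fold) called higher at log2 intensities between 5.10 and 5.89. In whole-culture RNA, fewer cells of a kind and less RNA per cell cannot be told apart.

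DLK1, a membrane protein that acts on Notch signalling, fell most. It read 11.36 and 11.31 with DMSO and 7.65 and 7.70 with tunicamycin, a 12.6-fold fall (limma adjusted p = 5.13e-07), and a second DLK1 probe fell 12-fold. VSNL1, a neuronal calcium sensor, fell at least 5.64-fold to below detection. ALDOC, a glycolytic aldolase (4.58-fold), NNAT, an imprinted membrane protein (4.5-fold), TNFAIP6 (4.5-fold), CRABP2 (4.44-fold), RGS5 (4.35-fold), CXCR4 (4.28-fold) and S100A4 (4.23-fold) completed, with EGR1, the 10 largest falls. RGS5 damps G protein signals, CRABP2 carries retinoic acid and CXCR4 is a chemokine receptor. For CXCR4 the DMSO arrays read 11.69 and 11.85 and the tunicamycin arrays 9.63 and 9.71. One further probe without a gene name fell by more than the tenth of these.

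**Figure D5:**
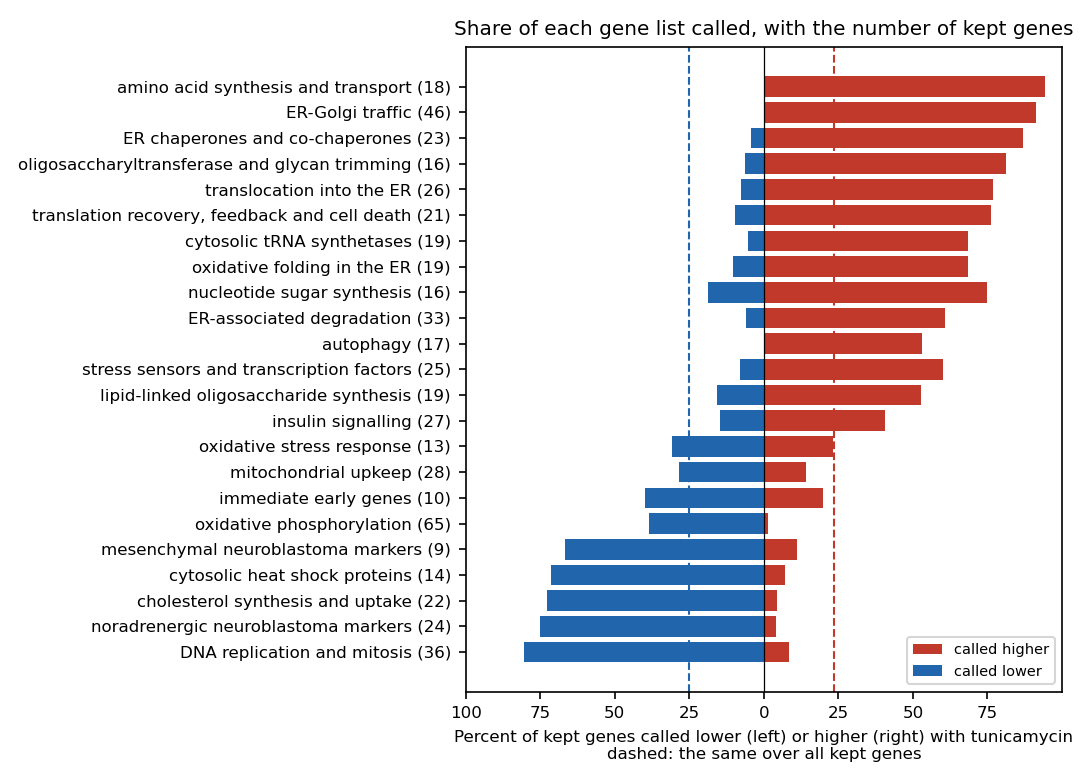
Percent of the tested genes of each of 23 lists called higher (red, right) or lower (blue, left) with tunicamycin, with the number of tested genes in brackets and dashed lines at the shares over all tested genes, 23.5% higher and 25.1% lower. Amino acid, ER-Golgi traffic and chaperone genes reach furthest to the right, and replication, noradrenergic, cholesterol and cytosolic heat shock genes furthest to the left.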

How the data were processed

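RNA of SH-SY5Y cells was read on 1-colour Illumina bead arrays. The authors deposited a non-normalized table with an intensity and a detection p-value per probe and column. A second deposited table of normalized intensities was put on a log2 scale here and used only as an alternative. How either was exported is not given in the sources used here. Independent arrays were recovered from the deposited intensity columns as described above, and each was paired with the deposited detection p-value whose order it follows. On the 4 arrays, 12455 to 12737 probes were detected. Mean intensity was 410.0 and 410.5 on the DMSO arrays and lower, 341.2 and 373.6, on the tunicamycin arrays. Quantile normalization takes out this difference between the groups, and its cause was not tested. The number of arrays limits the precision: the fit had 2 residual degrees of freedom.

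Intensities were background-corrected, quantile-normalized and put on a log2 scale with neqc (offset 16). Probes detected (p below 0.05) on both arrays of at least 1 group were tested with lmFit and eBayes (limma 3.58.1, R 4.3.3), adjusted over all tested probes by Benjamini and Hochberg, and called at an adjusted p below 0.05. The script was checked on simulated data. A probe undetected on both arrays of a group has its fold as a lower bound, against the dimmest detected probes. Of the probes, 19715 had 1 gene symbol in the platform annotation and 2469 had none, and 19695 matched a RefSeq gene by ID. A gene stands for its brightest tested probe. Levels of different probes are not comparable.

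The named genes are 24 genes fixed by name, the 10 largest rises and the 10 largest falls among called probes with 1 symbol, up to 4 called members with the largest change in each list, the carriers of a motif, and further list members given as context, some of them chosen after their values were seen. Of 664 genes in 25 lists, 617 had a probe and 552 were tested. Of those tested, 530 were detected on both arrays of both groups. A further 14 passed the filter through the tunicamycin group only and 8 through the DMSO group only. Some of these were detected on 1 array of the other group. The members and lists were chosen with earlier results of these data known. The labels do not tie an array to a culture of its own. The p-values therefore reflect how far these arrays lie apart, and that distance may be technical. The thapsigargin columns were not used here. Alternatives covered background correction, normalization, the filter, the variance model, the deposited normalized table, the column structure and leaving out each array.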

Additional observations from a re-analysis of the deposited data

How the results depend on the processing

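With the array recovered from tunicamycin replicate 3 counted as a tunicamycin sample, 0 probes were called, 0 higher and 0 lower (1124 at an unadjusted p below 0.05), and the counts of all 25 gene lists fell to 0. The median residual SD was then 0.1447, against 0.0733. With all 6 labelled columns taken as independent, which counts the same arrays more than once, 9139 probes were called, 4676 of them lower, and 44 genes of oxidative phosphorylation fell. Under the other alternatives over all 4 arrays the count ran from 5731 (detected on all 4 arrays) to 6622 (trended and robust variances), was 5389 in the deposited normalized table with 3 arrays, and ran from 4489 (without DMSO replicate 3) to 5006 (without tunicamycin replicate 2) with 1 array left out, where the lone array is assumed to vary like the other group. Every probe called in both settings moved the same way. With median-centred arrays 6 insulin signalling genes rose and 48 oxidative phosphorylation genes fell. Leaving out 1 array at a time gave 5 to 8 rises in insulin signalling, 5 to 7 falls in mitochondrial upkeep, 5 to 7 rises in autophagy and 1 to 2 rises among markers of other cell types. With detection required on all 4 arrays, 2 immediate early genes fell and 15 of the 119 probes checked singly could not be tested. Under that filter, with normexp, with trended variances and in the deposited normalized table, 1 marker of other cell types rose. The cause of these differences was not tested. These 119 probes were those of the genes fixed by name, the largest rises and falls, and the called list members with the largest changes. None of the 119 changed direction. Apart from the recovered tunicamycin replicate 3 array, the calls lost among them were those of EPCAM, NOTCH1 and GFAP. The other motif carriers and the members given as context were not checked singly. No paired analysis was possible because the independent arrays of the 2 groups share replicate number 1 only. Signal over background limits 182 called rises from below detection with DMSO and 137 called falls to below detection with tunicamycin, whose folds are lower bounds at most.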

Other observations

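Enzymes of glycolysis were not among the lists; they were looked at after the fall of ALDOC and SLC2A1 had been seen, so their counts are a description chosen after seeing the data. Of 17 genes, 16 were tested, of which 15 fell, 0 rose and LDHB was not called (log2 -0.23, limma adjusted p = 0.0561). The median change was -0.76 on the log2 scale, against -0.01 over all tested genes, of which 25.1% fell. PKM, which makes pyruvate, read 8.11 and 8.25 on the DMSO arrays and 6.70 and 6.51 on the tunicamycin arrays, a 2.97-fold fall. PGK1 fell 2.36-fold, HK2, the first enzyme, 2.24-fold and LDHA, which makes lactate, 2.15-fold. LDHA read 13.30 and 13.43 against 12.30 and 12.22, so the arrays of the groups lay apart. GAPDH, often used as a reference gene, fell 1.18-fold (13.65 and 13.71 against 13.46 and 13.43, adjusted p = 0.0271). With the array recovered from tunicamycin replicate 3 added, 0 of the glycolysis genes were called.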
